A study of Mus musculus with 8 samples.

Results

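The Pramel and Oogenesin genes are mouse members of the PRAME gene family, and 10 of them (Pramel1, Pramel3, Pramel4, Pramel5, Pramel6, Pramel7, Pramel14, Pramel30, Oog2 and Oog3) are described here as L3mbtl2 was knocked down in embryonic stem cells. These 10 were selected on measured values of this same comparison, so their differences, and the calls made on them within the fit over all probes, are a description that supports nothing. They are 10 of 52 family genes in the RefSeq gene table. Through the RefSeq accession of each probe the array named 19751 genes, among them 9 of the 10 members with 10 probes together, while no probe matched Pramel1.

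The study asked which co-repressors help MAX to keep germ cell genes silent in embryonic stem cells (ESCs). L3MBTL2 is a subunit of PCGF6-PRC1, a Polycomb complex that also holds MAX. The cells were VV3 ESCs, a single male mouse line with a Vasa::Venus transgene that lights up when the germ cell gene Ddx4 (Vasa) is active, grown in serum with LIF on STO feeder cells. Total RNA of 4 cultures given AllStars control siRNA and of 4 given L3mbtl2 siRNA was labelled with Cy3 and read on 1-colour Agilent arrays, 1 array per culture. The methods state that Vasa-positive cells were purified by cell sorting before the RNA was taken, and they describe the compared knockdown cells as Vasa-positive and the controls only as transfected ESCs, without saying whether the controls were sorted, so effects of the knockdown and of the sort cannot be told apart. Replicates 1 and 2 of both groups lay on slide 1 and replicates 3 and 4 on slide 2, with the control arrays at positions 1 and 3 of each slide and the knockdown arrays at positions 2 and 4, so group and position cannot be told apart either. The 75th percentile of spot intensity was between 854 and 1024 on the control arrays and between 791 and 1038 on the knockdown arrays, and 62.0% to 66.6% and 59.5% to 63.9% of spots were well above background. Each level below is the log2 intensity of a probe minus the 75th percentile of its array, so that a negative level is a signal below that percentile.

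PRAME family proteins are built of leucine-rich repeats, and several of them serve as substrate receptors of a ubiquitin ligase built on cullin 2. PRAME itself was found as a tumour antigen that is otherwise made mainly in testis, and it can repress retinoic acid receptor signalling. In mice the family has grown into clusters of near-identical copies, many of which are active in oocytes, early embryos or testis, and PRAMEL7 favours the naive pluripotent state by sending UHRF1, a cofactor of DNA methylation, to degradation.

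The siRNA target was lower in the knockdown cells. L3mbtl2 (probe A_51_P245393, NM_145993) read 0.27, -0.18, -0.21 and -0.31 in control replicates 1 to 4 and -1.45, -1.26, -1.58 and -1.73 in knockdown replicates 1 to 4. All 4 knockdown arrays lay below all 4 control arrays. The level fell by 1.40 on the log2 scale (SE 0.15, n = 4 per group), to 0.379 of the control level, with a limma adjusted p of 0.000944 over all probes tested and a two-sided exact permutation p of 0.0286, the smallest that 4 arrays against 4 can give. Ddx4, the RNA helicase gene behind the sorted reporter, rose 7.11-fold (probe A_51_P223569, log2 difference 2.83, SE 0.09, limma adjusted p 4.87e-06). All 4 knockdown arrays were above all 4 control arrays for this gene, at 3.62 to 3.87 against 0.85 to 0.99.

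The readings of the members ranged from a difference of over 2 on the log2 scale to no signal above background. Oog2, Pramel14 and Pramel30 met the call rule used for all genes, with higher levels in the knockdown cells, Pramel3 and Pramel7 entered the fit and did not meet it, and no member was called lower. A probe entered the fit, and is called tested below, only if the scanner software marked it as well above background throughout the control arrays, the knockdown arrays or both, and a gene was called where at least 1 of its probes differed over 2-fold with a limma adjusted p under 0.05. Of the 10 members, 5 had a tested probe, and 3 were called higher, where 2.49% of all 13651 genes tested were called higher and 3.21% were called lower. Nothing is read from that count, because the same comparison chose the members. Oog2, Pramel14 and Pramel7 were above background on all 8 arrays, while Pramel30 and Pramel3 passed on the 4 knockdown arrays and on 1 control array only, which means that they had to read higher in the knockdown cells to be tested. Of the 5 tested members, 2 (Oog2 and Pramel14) had knockdown arrays that all lay above all control arrays, as 13.9% of all genes tested had in at least 1 tested probe, and nothing is read from this count either. These are bulk RNA values, in which more cells with a transcript and more transcript per cell cannot be told apart.

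**Figure D1:**
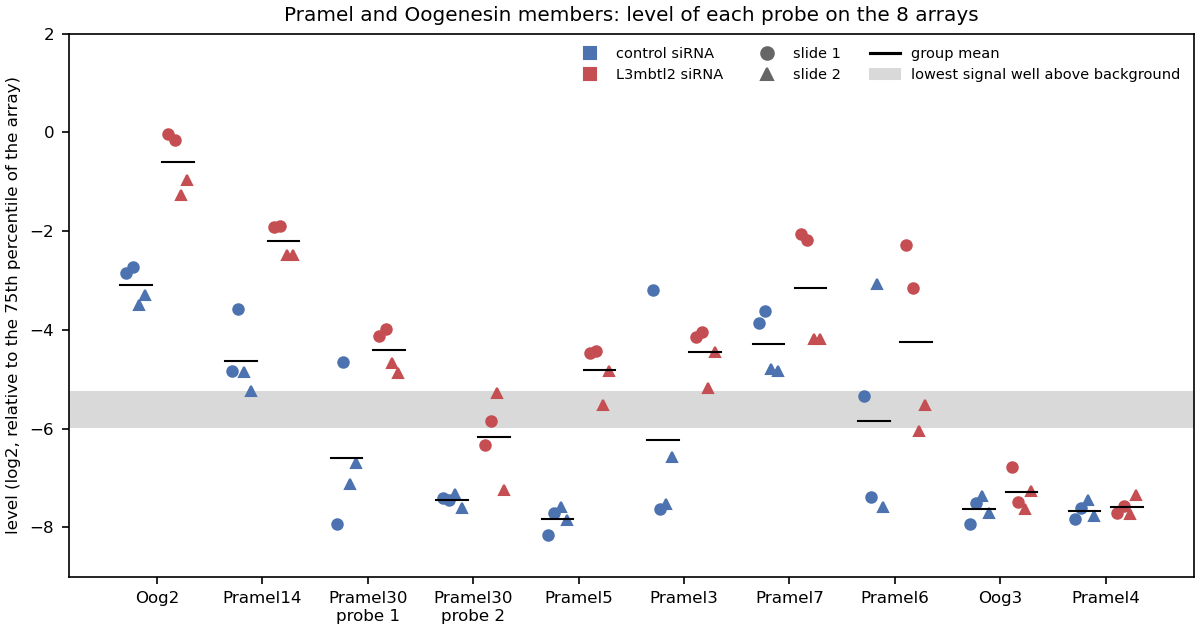
Level of each of the 10 member probes (log2, relative to the 75th percentile of the array) on the 4 control and 4 L3mbtl2 siRNA arrays, with circles for slide 1, triangles for slide 2 and lines for group means. The grey band spans the lowest signal called well above background on each array, from -5.96 to -5.25. The groups are apart for Oog2, Pramel14, Pramel5 and the second Pramel30 probe. That probe, like those of Oog3 and Pramel4, is above background on no array, so nothing is read from its gap.

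Most of the members lie in the large family cluster of chromosome 4. Oog2, an oogenesin gene known from oocytes and early embryos, carried the largest difference among the members above background on all arrays. Its probe (A_55_P2023163, NM_198661) read -2.84, -2.72, -3.50 and -3.28 in control replicates 1 to 4 and -0.03, -0.15, -1.27 and -0.97 in knockdown replicates 1 to 4. Each knockdown array was above each control array, and in both groups replicates 1 and 2 were above replicates 3 and 4. The difference was 2.48 (SE 0.31, 5.58-fold), and it was 2.69 between the arrays of slide 1 and 2.27 between those of slide 2. Pramel14 (A_55_P2139231, NM_001085540) read -4.84, -3.58, -4.85 and -5.24 in the control replicates and -1.92, -1.90, -2.48 and -2.49 in the knockdown replicates. The groups did not overlap, and control replicate 2 stood above the other controls. The difference was 2.43 (SE 0.34, 5.39-fold), with 2.30 on slide 1 and 2.56 on slide 2, and it lay within either SE of that of Oog2. With normexp background correction the differences were 1.98 for Oog2 and 1.43 for Pramel14.

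Pramel30 had a pair of probes near the detection limit. The first (A_55_P2125114, NM_001085541) read -7.94, -4.65, -7.12 and -6.70 in control replicates 1 to 4 and -4.12, -3.99, -4.66 and -4.87 in knockdown replicates 1 to 4, and the difference was 2.19 (SE 0.62). All 4 knockdown arrays were above background and 1 control array was, and that array, control replicate 2, overlapped the knockdown arrays, so the size of the difference rests on control arrays without signal. The second probe (A_55_P2125113) read between -7.62 and -7.32 in the controls and between -7.24 and -5.27 in the knockdown cells, above background on no array. The call of Pramel30 depended on the processing and on single arrays. It was lost with normexp (0.61), without the signal filter and with the one-way test after Benjamini-Hochberg adjustment. It was lost without control replicate 1, 3 or 4 and without any 1 of the knockdown replicates. Without control replicate 2 the probe met the call rule, but against control arrays that were all below background, so no size is given.

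The promoters of these 3 genes are shown because the genes met the call rule and the family's copies can share their regulatory sequence. Each is the RefSeq window from 250 bases before to 50 bases after the gene's start in build GRCm38.p6, written 5′ to 3′ on the gene's strand with every CpG in capitals. They lie at chr4:144190467-144190766 (Oog2, plus strand), chr4:143994320-143994619 (Pramel14, minus strand) and chr4:144329999-144330298 (Pramel30, plus strand).
Oog2: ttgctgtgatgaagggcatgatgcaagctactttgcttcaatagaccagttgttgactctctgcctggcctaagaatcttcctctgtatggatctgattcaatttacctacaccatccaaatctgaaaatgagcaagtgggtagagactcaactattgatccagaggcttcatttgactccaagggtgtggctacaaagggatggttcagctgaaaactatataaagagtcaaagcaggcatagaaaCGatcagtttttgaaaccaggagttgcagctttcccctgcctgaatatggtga
Pramel14: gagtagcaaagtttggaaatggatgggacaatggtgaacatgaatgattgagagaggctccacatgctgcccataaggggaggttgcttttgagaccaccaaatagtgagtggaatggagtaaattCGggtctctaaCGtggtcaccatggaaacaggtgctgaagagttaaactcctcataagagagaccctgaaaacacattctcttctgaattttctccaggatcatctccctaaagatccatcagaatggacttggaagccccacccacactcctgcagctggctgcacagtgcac
Pramel30: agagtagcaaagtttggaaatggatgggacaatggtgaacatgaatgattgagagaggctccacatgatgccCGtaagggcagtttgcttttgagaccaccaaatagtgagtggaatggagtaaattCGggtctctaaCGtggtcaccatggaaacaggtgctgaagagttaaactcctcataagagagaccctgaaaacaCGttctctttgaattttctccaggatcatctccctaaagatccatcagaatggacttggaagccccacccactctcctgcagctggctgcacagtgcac
The windows of Pramel14 and Pramel30 are identical at 293 of 300 bases, and that of Oog2 is a different sequence whose closest relative in the family is Pramel26, at 283 of 300 bases. CpG sites number 1 in Oog2, 2 in Pramel14 and 4 in Pramel30.

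The other members of the chromosome 4 cluster were dim. Pramel5 (A_55_P2081892, NM_001085418) read -8.15, -7.70, -7.58 and -7.85 in control replicates 1 to 4 and -4.46, -4.43, -5.53 and -4.84 in knockdown replicates 1 to 4. The groups were far apart, with 0 control arrays and 3 knockdown arrays above background, so Pramel5 was not tested. Its knockdown mean includes replicate 3 below background, so no size is given. Without knockdown replicate 3, the array below background, the probe passed the filter through the knockdown arrays alone and met the call rule, which gives no size, and with normexp the difference was 0.79. Pramel4 (A_55_P1980526, NM_001001319) and Oog3 (A_55_P1959510, NM_201258) were above background on no array, with levels from -7.83 to -7.35 and from -7.92 to -6.78, so nothing can be said of their direction. Pramel1, known from male germ cells, is the first family gene in the order of this cluster and was not measured.

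The 2 members of chromosome 2 differed in how steadily they were read. Pramel7 (A_55_P2078660, NM_178250), the gene for the UHRF1-directed factor of naive pluripotency, read -3.86, -3.62, -4.79 and -4.84 in control replicates 1 to 4 and -2.06, -2.17, -4.18 and -4.19 in knockdown replicates 1 to 4. Replicates 1 and 2 were high in both groups, and the knockdown arrays of slide 2 lay below the control arrays of slide 1, so the groups as a whole were not apart. The difference was 1.13 (SE 0.57, 2.19-fold) and was not called. It was 1.62 on slide 1 and 0.64 on slide 2. Paired by replicate number, the knockdown array was above its control by 1.79, 1.45, 0.62 and 0.65. With replicate number as a block in the limma fit the adjusted p was 0.0179 in place of 0.205, and with slide as a block it was 0.00753, so that Pramel7 met the call rule at the same difference. This is a description as before, because the same comparison chose the member, and with normexp the difference was 0.68. Pramel6 (A_55_P2161590, NM_178249), its neighbour, read -5.35, -7.39, -3.06 and -7.58 in the control replicates and -2.27, -3.15, -6.04 and -5.52 in the knockdown replicates. Its groups overlapped widely, with 2 arrays of each group above background, and the difference was 3.66 on slide 1 and -0.46 on slide 2, so no direction is given.

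The Pramel7 promoter, on the minus strand at chr2:87492369-87492668 of GRCm38.p6, is shown for comparison with Pramel14.
Pramel7: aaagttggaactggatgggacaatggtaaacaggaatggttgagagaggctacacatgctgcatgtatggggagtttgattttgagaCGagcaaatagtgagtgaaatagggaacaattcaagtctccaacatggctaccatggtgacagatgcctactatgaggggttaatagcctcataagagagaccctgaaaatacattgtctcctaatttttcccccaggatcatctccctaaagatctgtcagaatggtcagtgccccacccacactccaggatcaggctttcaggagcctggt
Although the genes are on different chromosomes, the closest family promoter to that of Pramel7 was that of Pramel14, with 234 of 300 bases identical. The Pramel7 window holds 1 CpG.

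Pramel3, which shares the X chromosome with Prame and is known from testis, was decided by a single control array. Its probe (A_55_P2106330, NM_031390) read -3.19, -7.63, -7.52 and -6.58 in control replicates 1 to 4 and -4.14, -4.04, -5.17 and -4.45 in knockdown replicates 1 to 4. Control replicate 1 was above every knockdown array, and the other control arrays were below background and below every knockdown array. The difference was 1.78 (SE 0.90), a size that rests on control arrays without signal, and was not called. With normexp it was 0.52. Without control replicate 1 it met the call rule, but against control arrays that were all below background, so no size is given. The promoter of Pramel3, on the plus strand at chrX:135302066-135302365 of GRCm38.p6, is shown because it has more CpG sites than the promoters of the called members.
Pramel3: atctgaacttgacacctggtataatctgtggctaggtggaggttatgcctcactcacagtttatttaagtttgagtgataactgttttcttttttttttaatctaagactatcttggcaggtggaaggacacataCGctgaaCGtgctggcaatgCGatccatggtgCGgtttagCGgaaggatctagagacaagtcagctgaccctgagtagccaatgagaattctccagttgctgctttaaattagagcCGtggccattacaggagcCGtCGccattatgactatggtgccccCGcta
It holds 9 CpG sites and is closest to that of Prame, at 166 of 300 bases.

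The rest of the family, taken by name and not by value, is 42 further genes, of which 22 had a probe (37 probes) and 14 were tested. Of these 14, 11 were called higher and 0 lower, where 2.49% and 3.21% of all genes tested were. Their median difference was 2.11 beside -0.01 over all genes tested. Pramel48 is among the 11 although it passed the filter through the knockdown arrays alone. Nothing is read from this count, because the family was taken up for members that the same comparison chose. In each of the 4 scalings tried (75th percentile shift, normexp background correction, quantile normalization and the deposited values) all 25 tested family probes, 5 of members and 20 of others, were above 0, while the number over 2-fold was 5, 2, 5 and 5 among the member probes and 17, 16, 17 and 17 among the others. The count above 0 is a description only, since the members were chosen on these values and 4 of the 25 probes (those of Pramel30, Pramel3 and Pramel48 and 1 of Pramel24) passed the filter through the knockdown arrays alone. The median difference over all probes was -0.03 with the 75th percentile shift, 0.00 with normexp and 0.00 with quantile normalization. The largest differences among the other family genes were those of Pramel37 (3.04 and 3.06 on its pair of probes), Pramel24 (2.88 and 3.05 on 2 of its probes), Pramel39 (2.98 on A_55_P1976037), Pramel21 (2.96) and Pramel19 (2.77). Pramel16 (2.20), Pramel31 (2.16 and 2.17), Pramel20 (2.06), Pramel17 (2.05) and Pramel34 (1.52 and 1.92) were also called, as was Pramel48, for which no size is given because 1 of 4 control arrays was above background. With normexp several were smaller, at 2.68 and 2.37 for Pramel37, 2.22 and 2.21 for Pramel24 and 2.38 for Pramel21. Pramel19 was then at 2.51, Pramel17 at 1.25 and both Pramel34 probes at 1.09. For Pramel16, Pramel20, Pramel31 and Pramel39 normexp did not give the lowest value among the alternatives. For Pramel39 (A_55_P1976037) the control arrays lay between -0.90 and 0.84 and the knockdown arrays between 2.19 and 3.53, and for Pramel37 (A_55_P1955583) between -2.07 and -0.36 and between 0.96 and 2.32. In both genes the groups were apart. The third Pramel24 probe (A_55_P2068279) was called at 2.76, but its groups overlapped through control replicate 2, without which the difference was 3.57, and its adjusted p was no longer under 0.05 in 10 of 19 alternatives.

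The 3 tested genes that were not called had small differences. Pramel13 differed by 0.06, Pramel25 by 0.05 and Pramel12 by 0.37 (SE 0.08, 0.20 and 0.15), each above background on all 8 arrays, with groups that overlapped. Paired by replicate number, the knockdown array for Pramel12 was above its control by 0.42, 0.31, 0.22 and 0.54. Its adjusted p was under 0.05 in 2 of 20 alternatives, at less than 2-fold. Among genes too dim to test, Prame was above background on 0 control arrays and 1 knockdown array and Oog4 on 0 and 2. Their groups did not overlap, but their knockdown means include arrays below background, so no size is given. Of all 47 family probes, 13 were above background on no array, 21 on all 8, and 4 on all knockdown arrays and fewer control arrays. Pramel48 read -6.25 to -4.50 in the controls and -4.40 to -3.26 in the knockdown cells, and its call was lost with normexp, with the one-way test after Benjamini-Hochberg adjustment, and without control replicate 2, 3 or 4 or knockdown replicate 1. Copies that are nearly identical may share signal across probes. The probes of Pramel16 (A_55_P2085989) and Pramel31 (A_55_P1959146) differed by at most 0.11 on any array, and such genes may not be separate measurements.

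By chromosome, the called genes were in 3 places. Family genes less than 1000 kb apart were taken as 1 cluster. In the large chromosome 4 cluster of 24 genes, which runs from Pramel1 to Pramel13, 11 were tested and 8 called higher (Pramel20, Pramel21, Pramel24, Pramel16, Pramel14, Oog2, Pramel30 and Pramel31, in chromosome order). The uncalled Pramel12 and Pramel13 are the second and the last gene of this cluster, and the uncalled Pramel25 lies inside it, next to Pramel24. In the smaller chromosome 4 cluster of 3 genes, Pramel17 and Pramel19 were tested and called. In the chromosome 5 cluster of 18 genes, 4 were tested and all 4 were called (Pramel34, Pramel37, Pramel39 and Pramel48). On chromosome 2 (Pramel7 and Pramel6) and on the X chromosome (Pramel3 and Prame) 1 of 2 genes was tested and 0 were called, and the lone Pramel32 on chromosome 4 and the pair on chromosome 12 (Oog1 and Pramel51) had no tested probe. Over all genes tested 2.49% were called higher and 3.21% lower. Pramel30 and Pramel48 entered the cluster counts through the knockdown arrays alone, and near-identical copies may not be separate measurements. Nothing is read from these counts, and whether the clusters differ from one another was not tested.

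**Figure D2:**
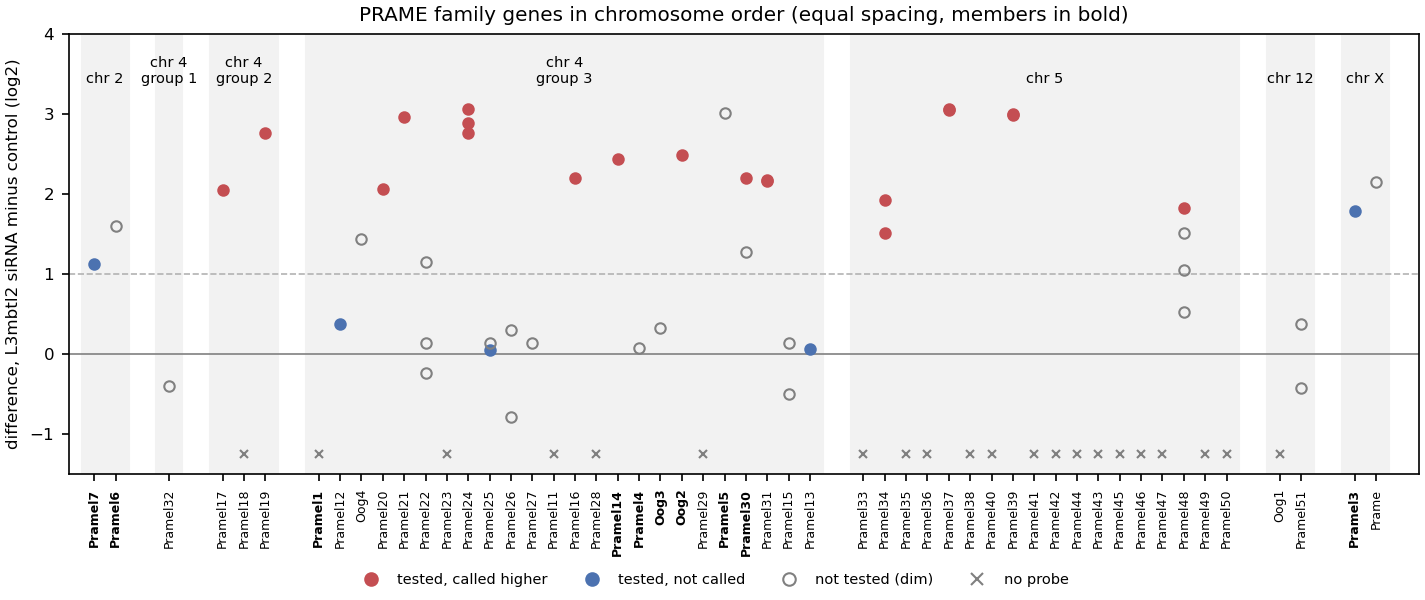
Difference between L3mbtl2 siRNA and control arrays (log2, difference of group means) for each of the 47 family probes, with the genes in chromosome order at equal spacing, and crosses for genes without a probe. The 20 probes called higher sit on chromosomes 4 and 5, and no tested family probe lies below 0 in any of the 4 scalings. This is a description only, since the members were chosen on these values and 4 probes passed the filter through the knockdown arrays alone.

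The nearest 3 tested genes outside the family on each side of each member made 19 genes, with a median difference of 0.05. Of these, 3 were called higher and 2 lower, where 2.49% and 3.21% of all genes tested were. Nothing is read from these counts, since Gm5128, Gm15023 and AAdacl4fm3 passed the filter through the arrays of 1 group alone. In the large chromosome 4 cluster mostly the same few genes served all its members, with up to 23 family genes in between. Gm13043, which lies between family genes in the large chromosome 4 cluster and carries no PRAME name in the gene table, read 2.76 to 4.14 in the controls and 4.81 to 6.01 in the knockdown cells, groups that did not overlap (difference 2.04, 4.12-fold). Beyond the end of that cluster, AAdacl4fm3, the first tested gene, was at least 1.92-fold lower, with 0 knockdown arrays above background, Aadacl4fm5 after it differed by -0.05 and was not called, and Dhrs3, the third, which encodes a retinal reductase, fell by 1.09. On the X chromosome a called gene lay on each side of Pramel3. Gm5128, the first tested gene after it, read -2.15 to -1.06 in the knockdown cells and -6.56 to -4.76 in the controls, and Gm15023, the second tested gene before it, read -2.59 to -1.94 and -6.42 to -5.41. Both had 1 control array above background, so the size of their differences is not given, while Tceal6 in between differed by -0.34 and was not called. Control replicate 1, the array on which Pramel3 was high, was also the highest control array for Gm5128 (-4.76, the others -6.56 to -6.11) and for Gm15023 (-5.41, the others -6.42 to -6.36), and the only control array on which they were above background. On chromosome 2 the 6 neighbours of Pramel7 and Pramel6 included 5 olfactory receptor genes and 0 of the 6 were called.

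Family RNA varied between replicates within each group as well as between the groups. Of the 20 family probes called higher, all 20 were higher on slide 1 than on slide 2 among the controls (by 0.22 to 2.34, median 1.03) and all 20 among the knockdown arrays (by 0.57 to 1.23, median 0.95). Over all 23517 tested probes the same medians were -0.00 and 0.00. Among all 25 tested family probes, 24 were higher on slide 1 in the controls and 23 in the knockdown cells. Pramel25 was lower on slide 1 in both (-0.48 and -0.56). Control replicate 2 was the highest control array for 18 of the 20 probes and knockdown replicate 2 the highest knockdown array for 16. Of all 25 tested family probes, the knockdown arrays were over 2-fold above the controls for 22 on slide 1 and for 21 on slide 2, a description under the same limits of selection and filter as the count above 0. Each slide holds its own pair of replicates, so slide and culture cannot be told apart.

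**Figure D3:**
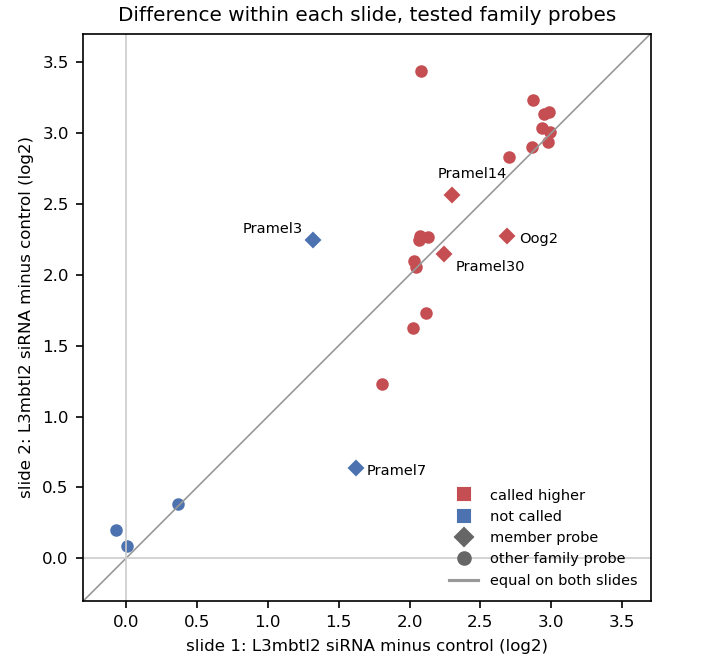
Difference between L3mbtl2 siRNA and control (log2) within slide 1 against that within slide 2, for the 25 tested family probes, with diamonds for member probes. Most points of called probes lie near the line of equal difference, with a Pramel24 probe (2.08 and 3.44) as the farthest above it, Pramel7 lies below it (1.62 and 0.64) and Pramel3 above it (1.32 and 2.24), a gap that was not tested.

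Genes of the two-cell-like state, which a small share of ESCs enters and in which genes of the first embryonic genome activation are on, moved alongside the family. Of 20 listed genes 11 were tested, 10 were called higher and 0 lower, with a median of 2.05. Usp17lb (2.85) and 1 probe of Usp17la (A_55_P2002795, 2.53), which encode deubiquitinases, had the largest differences, while the other tested Usp17la probe (A_55_P2002792) differed by 0.28 and was not called. Zscan4f, whose family is tied to telomere maintenance in ESCs, gave the highest signal of the list. The summed level of the list, in units of the 75th percentile of each array, was 25.6, 30.3, 17.0 and 18.1 in control replicates 1 to 4 and 94.5, 92.6, 51.3 and 52.0 in knockdown replicates 1 to 4. The knockdown arrays were all above the controls, and slide 1 was above slide 2 in both groups, as for the called family probes. Zscan4a, Zscan4b, Zscan4d, Zscan4e, Usp17le, Gm4340, Duxf3, Tdpoz1 and Tdpoz3 had no tested probe. The slide difference of the list's 14 tested probes had medians of 0.87 in the controls and 0.95 in the knockdown cells, and was above 0 for 12 and 13 of them. Relative to the mean of each gene's controls, the median over the 19 tested family genes was 0.15, 0.79, -0.43 and -0.48 in control replicates 1 to 4 and 2.42, 2.63, 1.77 and 1.69 in knockdown replicates 1 to 4. Over the 11 two-cell-like genes it was 0.12, 0.65, -0.52 and -0.34, and then 2.32, 2.53, 1.60 and 1.52. By these medians replicate 2 was the highest array of its group in both lists and replicates 3 and 4 the lowest, while the summed two-cell-like level was highest on knockdown replicate 1, and the part of such cells in the family's difference was not tested.

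**Figure D4:**
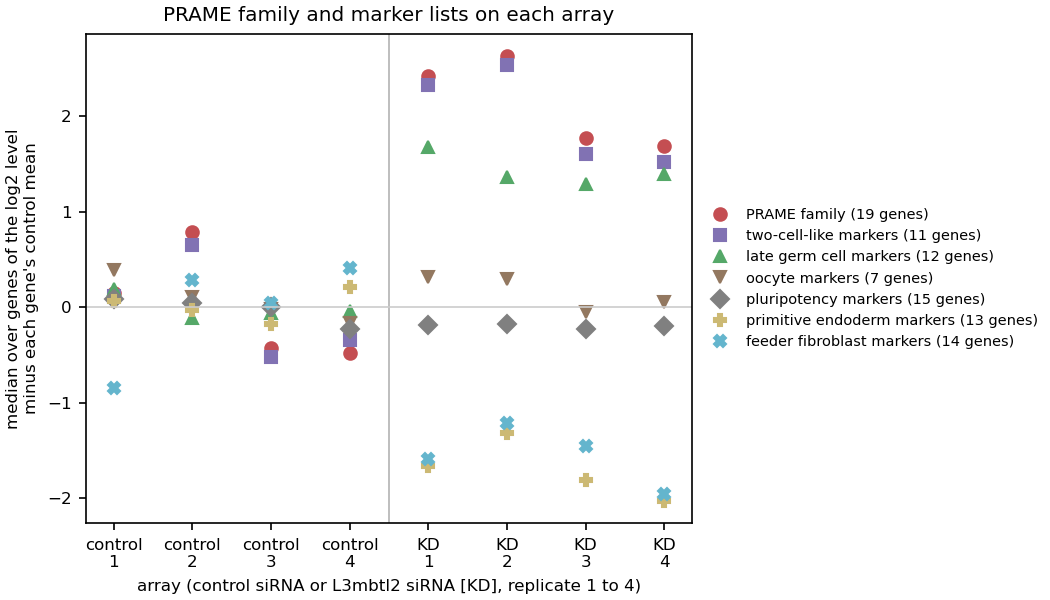
Median over the tested genes of each list of the log2 level minus the gene's control mean, on each of the 8 arrays. The 19 PRAME family genes and the 11 two-cell-like genes lie close together on every array (0.79 and 0.65 on control replicate 2, 1.69 and 1.52 on knockdown replicate 4), while the primitive endoderm and feeder lists are low on all 4 knockdown arrays.

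The profiles of the members over the arrays were set beside those of all other genes. For each member above background on all 8 arrays, the 3 genes outside the family with the smallest root mean square difference of the mean-centred log2 profile over the 8 arrays were taken. For Oog2 they were Gm5891 (0.21), Zscan4c (0.23) and Rbmy (0.24). For Pramel14 they were Chrm3, a muscarinic acetylcholine receptor gene (0.17), Gm5039 (0.17) and Usp17la (0.20). For Pramel7 they were Tdpoz7 (0.37), Gm428 (0.39) and the growth factor gene Fgf1 (0.45).

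Markers of other cells that the cultures could hold also moved between the groups. Of 13 primitive endoderm markers, all tested, 9 were called lower and 0 higher (median -1.87), led by Cubn (-3.20) and Dab2 (-2.53), and Lamb1 was the brightest. Their summed level was 27.1, 25.7, 24.4 and 32.2 in the control replicates and 9.38, 12.8, 9.90 and 8.34 in the knockdown replicates. Of 16 feeder fibroblast markers 14 were tested (not Lum or Postn), 8 were called lower and 1, Loxl1, higher by 1.01 on 1 probe and not called on the other (0.88), with a median of -1.59 over the list. Their summed level was 6.88, 14.1, 12.4 and 15.8 in the controls and 6.06, 6.002, 6.61 and 6.59 in the knockdown cells, with Tagln brightest and with Dcn and Col3a1 above background on no knockdown array (at least 12.1-fold and 7.81-fold lower). Every knockdown array was below every control array in both sums, and the part of these cells, or of the sort that would remove feeder cells, in the family's difference was not tested. Of 12 late germ cell markers 7 were called higher and 1, Hormad1, lower by a difference of -1.17 on 1 probe and not called on the other (-0.98), with a list median of 1.47, with Stra8 brightest and Tex101 (8.21) and Ddx4 (2.83) the most changed. Their summed level was 56.4, 40.4, 35.2 and 42.9 in the controls and 173, 149, 144 and 175 in the knockdown cells. Of 15 oocyte markers 7 were tested and 0 called (median 0.24, Zp3 brightest), and Zp1, Zp2, Bmp15, Nobox, Figla, Oosp1, Zar1 and Lhx8 had no tested probe. Under the 2-fold cut, Zp3 was higher by 0.91 (limma adjusted p 0.0123) and Padi6 differed by -0.49 (limma adjusted p 0.0454). Figla was above background on 0 control and 2 knockdown arrays, and Zp2, Zar1 and Lhx8 each on 1 and 0. Of 9 tested trophectoderm markers 0 were called (median -0.48, Tfap2c brightest, Elf5 not tested), and of 15 pluripotency markers 1 was called, Dppa3, higher by 2.44 (median -0.23, Dppa5a brightest).

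Of the genes that work with PRAME family proteins, few were called. The 4 listed partners in the cullin 2 ubiquitin ligase, with Elob the brightest, differed by -0.10 to 0.29 on the probe of highest mean signal per gene (median 0.10). Over all their probes the differences ran from -0.20 (Cul2) to 0.36 (Rbx1), and 0 genes were called. That Rbx1 probe (A_52_P676076) had groups apart and a limma adjusted p of 0.0405, while the other Rbx1 probes differed by -0.10 and -0.15. Of 7 DNA methylation genes 6 were tested and 0 called (median -0.07, lowest -0.59, highest 0.99), with Dnmt3l brightest and Tet1 not tested. The highest was Dnmt3l, just under 2-fold, with groups apart and a limma adjusted p of 0.00244. The lowest was Tet2, whose other probe (A_55_P2051405) differed by -0.76. Uhrf1, whose protein is the target of PRAMEL7, differed by -0.08 (A_55_P2035286), a value that says nothing of the protein. The LIF and STAT3 pathway, which is known to act above Pramel7, had 0 of 8 genes called (median -0.36, Socs3 brightest, lowest -0.70, highest 0.03). Stat3 (-0.49 and -0.70 on its pair of probes, limma adjusted p 0.00876 and 0.00109) and Klf4 (-0.70, limma adjusted p 0.0274) were lower by less than 2-fold. Of 8 genes of the retinoic acid receptor pathway 1 was called higher, Stra8 (1.34), which the late germ cell list also holds. Another gene, Rarb, was called lower on 1 of its probes (A_55_P2084807) and not on the other (A_55_P1962154, -0.86). The called probe was above background on 1 of 4 knockdown arrays, so its size is not given. The median over the list was -0.19. For each count of 0 above, in the family and in the lists, limma and the one-way test named in the study's legends also counted 0 genes over 2-fold at an unadjusted p under 0.05, except for 1 pluripotency gene that limma counted lower.

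Promoters of the family are poor in CpG sites. A RefSeq promoter window of 300 bases was at hand for 42 of the 52 family genes, all 10 members included, and for 32841 genes in all. The family's median was 1 CpG (range 0 to 20) with 43.5% G and C and an observed over expected CpG ratio of 0.080, beside 7 CpG, 52.7% and 0.384 over all promoters. The members' medians were 2 CpG, 46.2% and 0.124. At most 1 CpG was found in 26 of 42 family promoters (61.9%) and in 14.1% of all promoters, and at most 4 in 38 of 42 (90.5%) and in 38.0% of all. The 13 family genes called higher that had a window held 0 to 4 CpG sites, and the 4 tested and not called held 1 (Pramel7), 2 (Pramel25), 7 (Pramel13) and 9 (Pramel3). Pramel1, without a probe, had the most with 20, and Prame had 9. With 4 uncalled genes the relation between CpG count and difference was not tested.

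**Figure D5:**
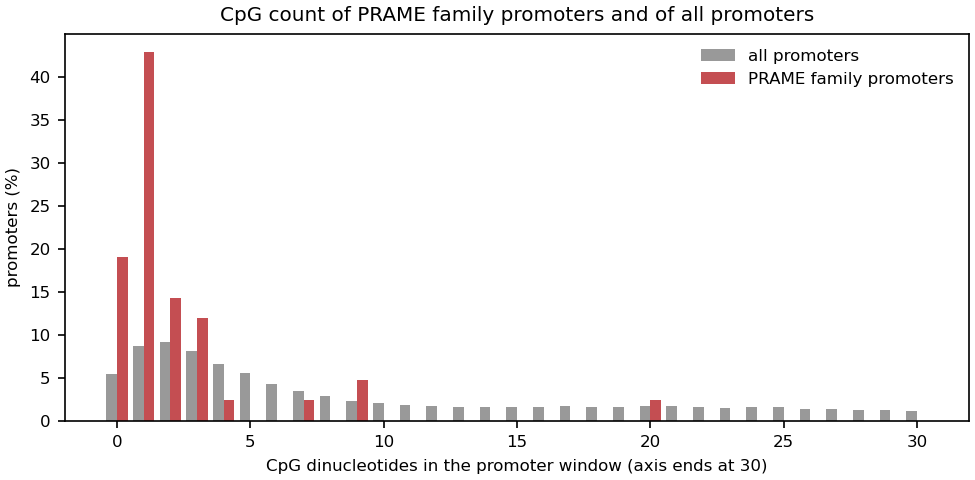
Share of promoters (%) by the number of CpG dinucleotides in the 300-base window, for the 42 PRAME family promoters and for all 32841 promoters, those with over 30 not drawn. The tallest family bar is at 1 CpG, and the family promoters beyond 4 CpG are those of Pramel13, Pramel3, Prame and Pramel1.

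Binding motifs tied to the PCGF6-PRC1 complex were sought by their letters on both strands. CACGTG, the E-box bound by MAX dimers, was in 0 of 42 family promoters and in 7.15% of all promoters of that length. TCCCGC, the core of the E2F site, was in 0 of 42 and in 19.98% of all. TCACACC, a T-box motif of the kind bound by MGA, was in 4 of 42 (9.52%; Oog4, Pramel24, Pramel11 and Pramel31), in 0 of the 10 members and in 3.98% of all. In Pramel24 and Pramel11 the match lay after the gene's start. The E-box and the E2F core each hold a CpG, the pair of letters that these windows mostly lack, and no match says only that these letters are not in this window.

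Near-identical promoter copies lay within clusters. Of 861 pairs of family promoters, 20 were identical at 90% or more of the bases, all 20 within 1 cluster, and they took in 16 of the 42 genes. Just short of that share, Oog1 on chromosome 12 and Pramel25 on chromosome 4 had 269 of 300 bases in common. Other genes too had their closest promoter in another cluster, such as Oog4 with Pramel32 (243) and Pramel17 with Pramel4 (217). Pramel37 and Pramel50 on chromosome 5 matched at all 300 bases, and Pramel39 and Pramel43 at 298. Among the members, Pramel14 and Pramel30 were the closest pair (293), Oog2 was closest to Pramel26 (283), Pramel4 and Pramel5 were closest to each other (267), Oog3 to Pramel27 (240), Pramel6 to Oog4 (195) and Pramel1 to Pramel6 (62). Not every called gene had a close copy, as the window of Pramel21 was closest to that of Pramel49 with 73 of 300 bases in common.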

How the data were processed

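Cy3-labelled RNA of 4 control and 4 L3mbtl2 siRNA cultures was read on 8 arrays, and the number of arrays limits the precision. Per the file headers, Agilent Feature Extraction gave each spot a background-subtracted intensity with no normalization between arrays. The authors also deposited a log2 table, made in GeneSpring with a 75 percentile shift. Its values were centred per probe, matched the shifted scanner values after centring (lowest correlation 0.9995 across 39429 probes) and had column medians of -0.02, 0.02, 0.05 and -0.02 in control replicates 1 to 4 and -0.04, 0.02, -0.06 and 0.08 in the knockdown replicates. Here log2 intensities, shifted so that the 75th percentile of every array was 0, were fitted with limma 3.58.1 (lmFit, eBayes) in R 4.3.3 over 23517 probes that were well above background throughout 1 group or both, with Benjamini-Hochberg adjustment over all of them, and 78 tested probes that lacked a value on some array were fitted on the rest. No spot was saturated. The p-values measure the spread between the 4 replicates, which the labels call biological, and nothing else. Probes were named through their RefSeq accession in the GRCm38.p6 gene table (26055 of 39429), which served for names, chromosomes and gene order only, since the array was designed on mm9, and the family was taken from gene symbols and synonyms.

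Members and gene lists were chosen with earlier results of these data known. The text names all members, every other tested family gene, the target and reporter genes, at most the 2 highest and 2 lowest called genes of each list, called neighbours and the 3 genes most like each member above background on all arrays. Genes with a limma adjusted p under 0.05 that missed the 2-fold cut are named as well in some lists. These are the cullin 2 ligase, oocyte, DNA methylation and LIF and STAT3 lists. The lists were cullin 2 ligase partners, DNA methylation genes, LIF and STAT3 genes, retinoic acid receptor genes, and markers of oocytes, two-cell-like cells, pluripotency, feeder fibroblasts, primitive endoderm, trophectoderm and late germ cells. List medians and ranges use the probe with the highest mean signal per gene. The brightest gene is the one with the highest probe signal, which does not rank transcript amounts between genes. For an "at least" fold, an array below background was set to the lowest signal marked well above background on it. Its own reading was used if higher. That level is not the detection limit of a single probe. Arrays of the same replicate number were correlated at 0.38 to 0.58 after the group means were removed, and those of different numbers at -0.44 to 0.25, so replicate number was also fitted as a block. The alternatives were normexp background correction (offset 50, on the median signal because the mean signal was not in the files), quantile normalization, the deposited values, other filters, slide as a block, an intensity trend, the one-way test named in the legends, 1.5-fold, 1 probe per gene, each slide alone and leaving out each array. Promoters of 300 bases came from RefSeq and were aligned globally with free end gaps in Biopython 1.88 under Python 3.11.15. Exact permutation tests used scipy 1.17.1. The fit was tested on simulated data. No protein or probe sequences were at hand, so neither protein identity nor cross-hybridization was computed.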

Additional observations from a re-analysis of the deposited data

How the results depend on the processing

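Under the alternatives 145 values of member probes kept their adjusted p on the same side of 0.05 or, where untested, moved by less than the spread between replicates, 12 lost an adjusted p under 0.05, 5 gained it and 6 untested values moved further. Of other family probes 364 values kept their side, 32 lost it and 2 gained it. The 145 include 14 values each of Pramel4 and Oog3, which were above background on no array. No called value changed sign, while the uncalled differences of Pramel6 (-0.46 within slide 2), Pramel4, Pramel13 and Pramel25 did under some alternatives. Weak signal over background was a limit, since 13 of 47 family probes were above background on no array. With normexp background correction 193 genes were higher and 159 lower, 2 members (Oog2 and Pramel14) and 10 other family genes were called, and Pramel30 was 0.61. A filter that asked for signal above background in all 8 samples gave 249 genes higher and 290 lower and called the same 2 members and 10 other family genes, without Pramel48. The one-way test after Benjamini-Hochberg adjustment gave 289 higher and 327 lower and lost Pramel30 and Pramel48. Without a filter Pramel5 was called, Pramel30 was not and Prame was added. Within slide 1, with 2 arrays against 2, 0 genes were higher and 0 lower by limma, so 0 members and 0 other family genes were called, while at an unadjusted p under 0.05 limma counted 319 higher, 373 lower, 3 members and 11 other family genes. L3mbtl2 differed by -1.40 within slide 1 (limma adjusted p 0.0980, against 0.000331 to 0.00873 under the other limma settings). Within slide 2, 4 members and 11 others were called, with Pramel3 added. At 1.5-fold 700 genes were higher and 1014 lower. With replicate number as a block Pramel7 was called (limma adjusted p 0.0179), and no other family call changed by this pairing. Leaving out 1 array gave 296 to 371 genes higher, 355 to 500 lower, 2 to 3 members and 10 to 11 others, and L3mbtl2 between -1.48 and -1.27. With any probe of a gene counted, as in the report, 1 retinoic acid receptor gene was lower, and with only the probe of highest mean signal 0 were. In the 250 bases before the start, the E-box was in 6.02% of all promoters, the E2F core in 16.9% and the T-box motif in 3.33%, and in 2 of 42 family promoters (4.76%) in place of 4. The causes of these changes were not tested.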
